A study of Arabidopsis thaliana with 9 samples.

Results

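The 48 genes described here are nuclear genes of the photosynthetic apparatus of Arabidopsis thaliana, chosen by gene identifier from the 38194 genes of the count tables. They code for the light-harvesting chlorophyll-binding proteins of photosystem II (LHCII, 9 genes of the LHCB1, LHCB2 and LHCB3 types, and 5 genes of the minor antennae LHCB4 to LHCB6) and of photosystem I (LHCI, 4 genes), subunits of photosystem II (10 genes, with PSBS) and photosystem I (12 genes), the electron carriers plastocyanin and Rieske protein (3 genes), and the small subunits of Rubisco with Rubisco activase (5 genes). They were listed by function, not by a threshold on a measured value, though with earlier results of these data known. All 48 genes passed the filter on low counts. RNA was measured in whole seedlings, 4 days old and grown at 23 °C in long days (16 h light, 8 h dark), in 3 libraries (A, B and C) each of OE UPAT, OE APOLO and WT. OE UPAT carries a transgene for UPAT, a long noncoding RNA (lncRNA) of human cells, behind the constitutive viral 35S promoter. OE APOLO carries the Arabidopsis lncRNA APOLO behind the same promoter. WT is the Columbia accession, in which both transgenic lines were made. By the study's methods, each transgenic group was 1 line, so that a line and its transgene cannot be told apart.

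Photosynthesis genes of the nucleus are transcribed in the light, their proteins are imported into the chloroplast, and there they meet partner subunits coded by the plastid genome. LHCB and LHCA proteins hold the chlorophyll that captures light, photosystem II splits water and photosystem I reduces ferredoxin, with plastocyanin and the cytochrome b6f complex between them, and Rubisco fixes the carbon. In seedlings these genes are known for a joint response to light, to the transcription factors GLK1, GLK2 and HY5, to the circadian clock and to sugars, and many of them exist as several close copies.

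The label of the OE APOLO libraries was checked first on the APOLO row (AT2G34655). It held 1, 3 and 3 counts in the OE APOLO-labelled libraries and 1, 1 and 0.5 counts in OE UPAT, against 2, 2 and 2 counts in WT. No library was above the floor of 3 counts, so that a higher APOLO level could not be seen in the libraries with that label, and for this reason they are called OE APOLO-labelled libraries. For the human UPAT transcript no row was found. Total counts ran from 7901946 to 9206471 in OE UPAT, from 11918225 to 14112670 in the OE APOLO-labelled libraries, and from 13023768 to 14084551 in WT. Of the members, LHCB4.3 had 90 to 125 counts per library, PETE1 1091 to 1898, and the highest, LHCB1.3, 206191 to 417801. Markers of shoot, root and seed had a count above 0 in at least 1 library for 14 of 14, 16 of 16 and 9 of 9 genes. NRT2.1 of the root list was at 0 in all libraries but WT C. The filter on low counts was passed by 14 of the shoot, 14 of the root and 3 of the seed genes. The summed level of the shoot and epidermis markers was 501 to 571 CPM (counts scaled to library size and composition) in OE UPAT and 489.8 to 526 CPM in the OE APOLO-labelled libraries, against 445 to 463 CPM in WT. That of the root markers was 2510 to 2655 CPM in OE UPAT and 2570 to 3308 CPM in the OE APOLO-labelled libraries, against 2111 to 2401 CPM in WT, most of it from BGLU23. That of the seed storage markers was 2.09 to 5.23 CPM in OE UPAT and 3.37 to 36 CPM in the OE APOLO-labelled libraries, against 5.04 to 11.4 CPM in WT. The shoot and root sums of both lines were above those of every WT library. Over the 14 tested root genes, however, the median log2 fold change against WT was -0.09 in OE UPAT and -0.05 in the OE APOLO-labelled libraries. For the 14 shoot genes it was 0.24 and 0.18. The part of these markers in the results on the members was not tested. In these bulk samples, fewer cells of a type and less RNA per cell cannot be told apart.

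The bases upstream of 6 members are shown, chosen by the results of these genes. They are 4 of the 5 copies of LHCB1, whose levels differed from WT in unlike ways, and RBCS2B and PSAH2. RBCS2B and PSAH2 are the genes of Rubisco and of photosystem I with the largest log2 fold change in OE UPAT. Each run is the 250 bases before the annotated start of the gene, read 5′ to 3′ on the strand of the gene in the RefSeq annotation of TAIR10.1. Capitals mark the G-box CACGTG, the I-box GATAAG, the CCA1 sites AAAAATCT and AACAATCT and the evening element AAAATATCT, searched on both strands, where none of these strings contains another.
LHCB1.1, chr1:10475970-10476219, reverse strand: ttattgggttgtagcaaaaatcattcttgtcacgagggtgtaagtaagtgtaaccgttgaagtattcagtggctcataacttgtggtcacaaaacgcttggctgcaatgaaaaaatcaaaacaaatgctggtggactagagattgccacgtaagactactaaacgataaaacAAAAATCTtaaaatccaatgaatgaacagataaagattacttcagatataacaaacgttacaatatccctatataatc
LHCB1.2, chr1:10473503-10473752, reverse strand: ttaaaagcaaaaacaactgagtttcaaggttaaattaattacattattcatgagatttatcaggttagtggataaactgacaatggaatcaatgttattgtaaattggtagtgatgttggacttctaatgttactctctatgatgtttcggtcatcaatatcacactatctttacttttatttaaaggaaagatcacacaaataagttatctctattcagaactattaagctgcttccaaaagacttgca
LHCB1.3, chr1:10477635-10477884, forward strand: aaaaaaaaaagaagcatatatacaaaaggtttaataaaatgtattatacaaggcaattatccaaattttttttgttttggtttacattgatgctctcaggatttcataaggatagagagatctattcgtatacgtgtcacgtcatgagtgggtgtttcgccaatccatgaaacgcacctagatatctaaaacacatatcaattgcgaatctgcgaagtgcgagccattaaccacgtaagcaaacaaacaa
LHCB1.5, chr2:14523569-14523818, reverse strand: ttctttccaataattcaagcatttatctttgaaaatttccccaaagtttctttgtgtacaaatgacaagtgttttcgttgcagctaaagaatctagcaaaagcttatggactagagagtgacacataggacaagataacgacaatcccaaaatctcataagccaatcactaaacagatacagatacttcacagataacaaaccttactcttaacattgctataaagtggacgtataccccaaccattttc
RBCS2B, chr5:15382072-15382321, reverse strand: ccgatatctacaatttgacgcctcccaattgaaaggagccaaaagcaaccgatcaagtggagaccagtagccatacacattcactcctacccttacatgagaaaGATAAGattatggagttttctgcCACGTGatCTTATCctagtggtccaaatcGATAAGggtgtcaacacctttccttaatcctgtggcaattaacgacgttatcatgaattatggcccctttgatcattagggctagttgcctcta
PSAH2, chr1:19454548-19454797, forward strand: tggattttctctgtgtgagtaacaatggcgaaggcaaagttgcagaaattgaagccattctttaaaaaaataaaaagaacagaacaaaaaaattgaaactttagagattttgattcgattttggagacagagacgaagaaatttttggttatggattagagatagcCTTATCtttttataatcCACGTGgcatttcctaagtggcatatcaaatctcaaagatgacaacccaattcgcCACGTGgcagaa
The G-box, bound by HY5 and PIF factors, stood in the 250 bases of 9 of the 48 members (18.8%), against 6.5% of all 27443 protein-coding genes. The I-box, known from promoters of RBCS genes, stood in 13 (27.1%), against 12.3% of all. The CCA1 site AAAAATCT stood in 5 (10.4%), against 6.7%, its variant AACAATCT in 1 (2.1%), against 1.8%, and the evening element AAAATATCT in 0 of 48, against 2.4%. RBCS2B had 1 G-box and 3 I-boxes, and PSAH2 had 2 G-boxes and 1 I-box. Among other genes called higher in OE UPAT, LHCB6 had 1 of each, while RBCS1A, RBCS1B, RBCS3B and PSBS had neither. PSBQ2, not called by edgeR, had 2 G-boxes and 1 I-box. The part of these boxes in the levels was not tested. LHCB1.1 had the AAAAATCT site, while LHCB1.2, LHCB1.3 and LHCB1.5 had no match to any of the 5 in the window. The hexamer GAAGAA stood in 9 members (18.8%), against 30.5% of all genes, and TATAAA in 21 (43.8%), against 47.3%. A match of letters is a description and shows no binding.

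Together the 48 members took 19.6, 20.5 and 21.1% of all gene counts in OE UPAT and 19.2, 21.3 and 20.1% in the OE APOLO-labelled libraries, against 19.9, 17.7 and 19.7% in WT. These groups overlapped. The LHCII genes held 7.45, 7.63 and 7.69% of the counts in OE UPAT, against 8.92, 8.01 and 8.67% in WT, with every OE UPAT library below every WT library. The Rubisco genes held 2.96, 3.23 and 3.47% in OE UPAT, against 2.23, 1.93 and 2.23% in WT, with every OE UPAT library above. In the OE APOLO-labelled libraries the LHCII genes held 8.56, 9.39 and 8.76% and the Rubisco genes 2.05, 2.28 and 2.09%, and both ranges overlapped with WT.

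The members moved together from library to library within a group. WT B was the lowest WT library for 47 of the 48 members, with a median log2 difference of -0.24 to the mean of the other 2 WT libraries. OE APOLO A was the lowest of its group for 48 of 48 (median -0.21), and OE UPAT A for 47 (median -0.18), while OE UPAT C was the highest for 46 and OE APOLO B for 42. The spread between replicates was thus shared by the members, and the fold changes of all of them rest on the same libraries. In the map of levels by library, the column of WT B is blue in nearly every row and that of OE UPAT C is the reddest of its group.

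**Figure D1:**
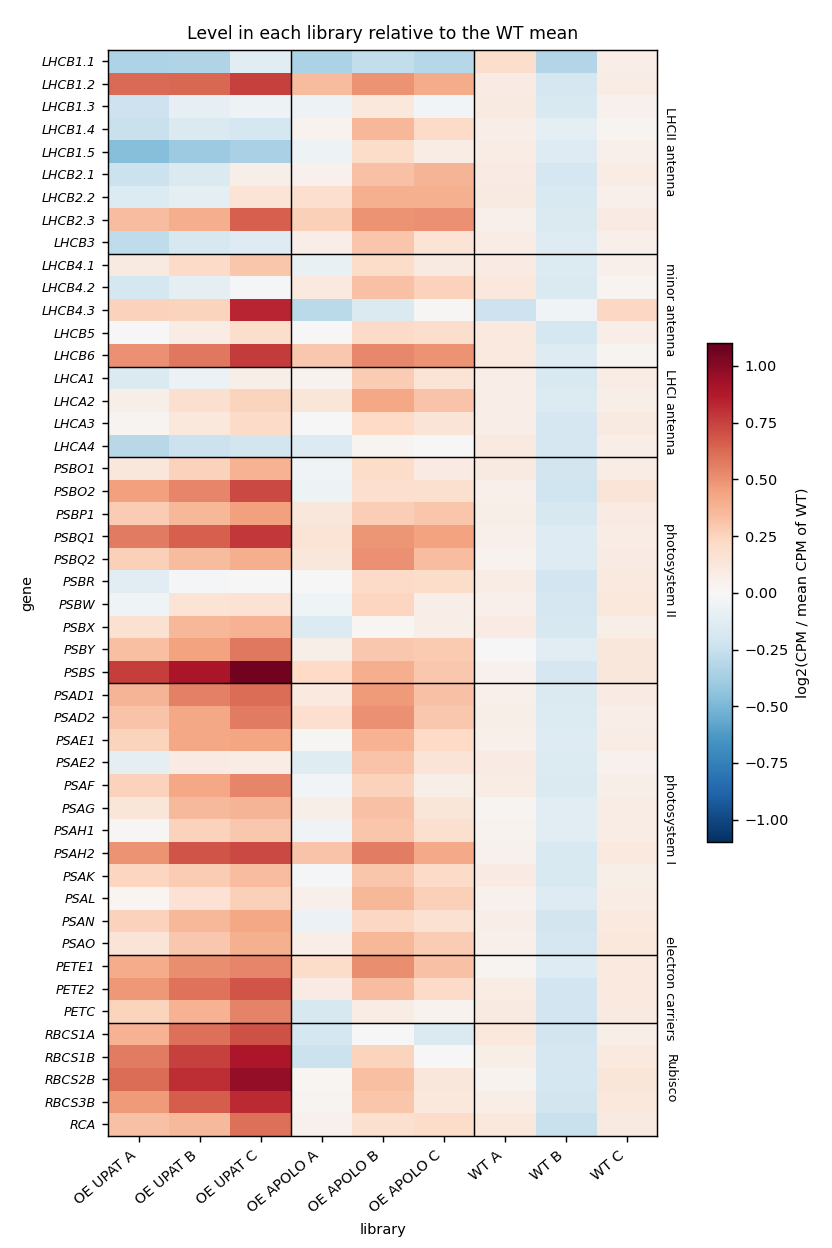
Heat map of the log2 ratio of the CPM of each member (rows, grouped by role) in each library (columns) to the mean CPM of the 3 WT libraries. WT B was below WT A and WT C for 47 of 48 members, and the Rubisco rows were highest in the 3 OE UPAT libraries.

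To ask how each line differed from WT, each member was tested with edgeR's quasi-likelihood test, adjusted over all 20021 genes tested, and called at an adjusted p-value (FDR) under 0.01. In OE UPAT, 20 of the 48 members rose and 1 fell against WT, where 10.1% of all genes tested rose and 9.72% fell (19.8% in either direction). In the OE APOLO-labelled libraries, 3 members rose and none fell, where 4.27% of all genes rose and 2.27% fell (6.54% in either direction), and the members' 6.25% is near that background. By DESeq2, 26 members rose and 1 fell in OE UPAT (9.22% and 8.42% of all genes it tested), and 10 rose and 0 fell in the OE APOLO-labelled libraries (4.39% and 2.33% of all), where 1 member was lower at an unadjusted p under 0.05 by edgeR. Between the lines, 7 members were higher and 3 lower in OE UPAT than in the OE APOLO-labelled libraries, where 8.49% of all genes were higher and 9.36% lower (17.8% in either direction), and DESeq2 called 12 higher and 6 lower (7.0% and 7.48% of all). The median log2 fold change of the members was 0.32 in OE UPAT and 0.17 in the OE APOLO-labelled libraries against WT, beside medians of -0.006 and -0.001 over all genes. All 3 OE UPAT libraries were above all 3 WT libraries for 30 members and below for 4, where 23.1% and 23.6% of all genes did so. For the OE APOLO-labelled libraries these counts were 13 and 0, where 15.9% and 15.1% of all genes did so. OE UPAT lay above the OE APOLO-labelled libraries without overlap for 15 members and below for 7, where 19.8% and 21.9% of all genes did so. Both comparisons share the WT libraries. No called member changed by as much as 1 on the log2 scale.

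**Figure D2:**
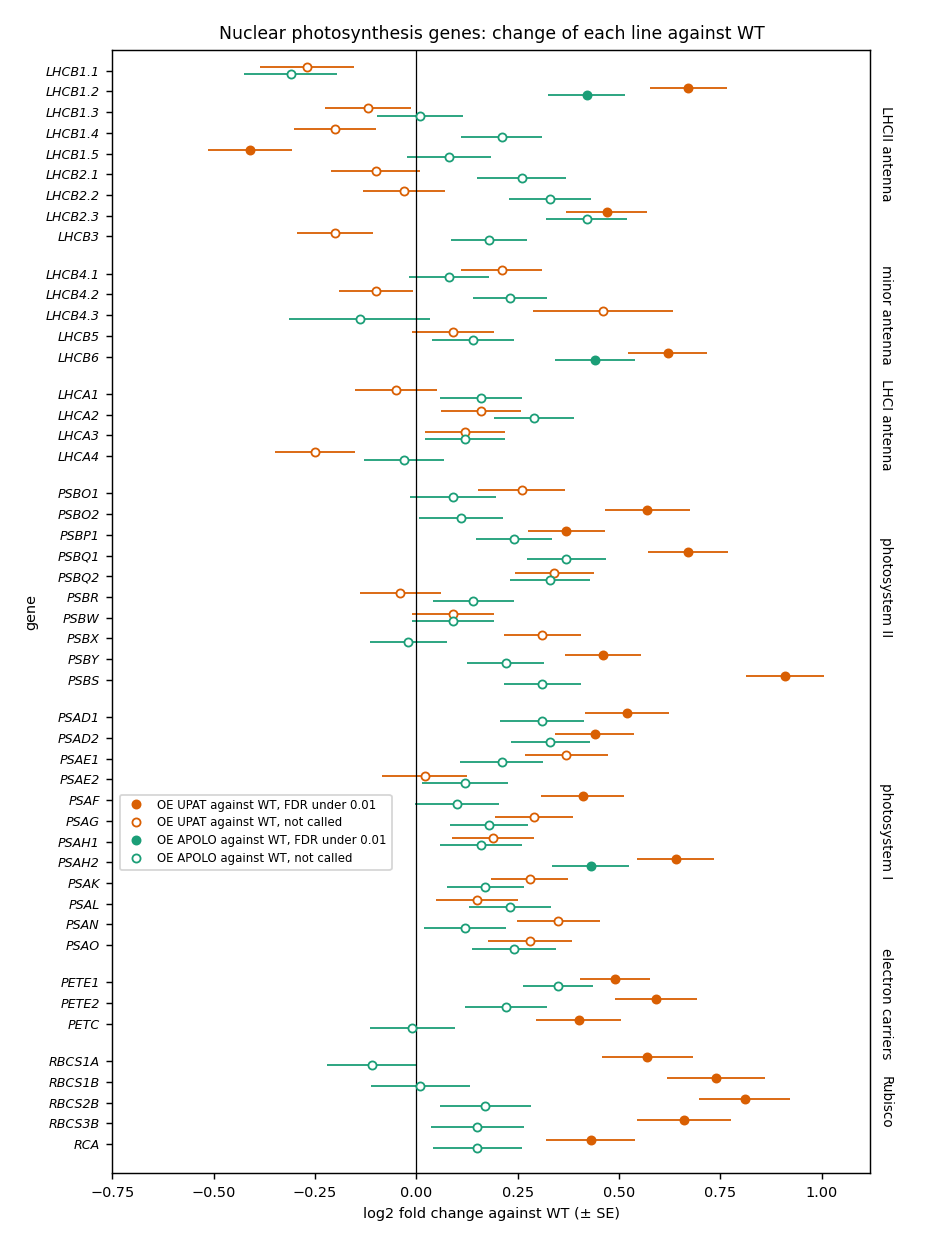
Log2 fold change against WT (points, with bars of 1 SE) of each of the 48 members in OE UPAT and in the OE APOLO-labelled libraries, by role, with filled points at an FDR under 0.01. All 5 Rubisco genes and all 3 electron carriers were called higher in OE UPAT, while 1 of 9 LHCII genes, LHCB1.5, was called lower. Of all genes tested, 10.1% were called higher and 9.72% lower in OE UPAT.

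The calls of the 2 comparisons held to a different degree. Of the 21 calls in OE UPAT against WT, 11 held in all 18 refits with another tool, scaling, filter or library left out: LHCB1.2, LHCB6, PSAH2, PSBO2, PSBQ1, PSBS, RBCS1B, RBCS2B, RBCS3B, PETE1 and PETE2. Without OE UPAT C, the library in which most members were highest, 11 members were called higher and 0 lower, and without WT B, the lowest of its group, 14 were called higher and 3 lower. Of the 3 calls in the OE APOLO-labelled libraries, 0 held in all refits. None was called when WT A, WT C, OE APOLO B, OE APOLO C or OE UPAT B was left out, and without WT B the only call was LHCB1.1, as lower, while without OE APOLO A there were 8 calls, all higher.

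The LHCII antenna binds most of the chlorophyll of the thylakoid, and its genes did not move as one. Of the 9 genes, 2 were called higher and 1 lower in OE UPAT, with a median of -0.12, and 1 was called higher in the OE APOLO-labelled libraries, with a median of 0.21. Of all genes tested, 10.1% were called higher and 9.72% lower in OE UPAT, and 4.27% higher in the OE APOLO-labelled libraries. The 1 lower call among 9 genes is near that background. LHCB1 itself has 5 copies at 2 loci: LHCB1.1, LHCB1.2 and LHCB1.3 lie in tandem on chromosome 1 (chr1:10474656-10475969, chr1:10472280-10473502 and chr1:10477885-10479114 in TAIR10.1), and LHCB1.4 and LHCB1.5 lie side by side on chromosome 2 (chr2:14524607-14525918 and chr2:14522524-14523568). Per kilobase of exon, LHCB1.3 and LHCB1.5 were the highest members in WT, at 22790 and 22290 CPM per kb, followed by LHCB1.4 at 10340, with LHCB1.1 and LHCB1.2 at 3683 and 3741 CPM per kb.

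LHCB1.2 (AT1G29910) was at 7054, 7105 and 7702 CPM in OE UPAT, at 5827, 6460 and 6073 CPM in the OE APOLO-labelled libraries, and at 4856, 4022 and 4846 CPM in WT. The 3 groups did not overlap, with OE UPAT highest and WT lowest. Its log2 fold change was 0.67 ± 0.095 (SE) in OE UPAT (edgeR's quasi-likelihood FDR 7.88e-05), 0.42 ± 0.095 in the OE APOLO-labelled libraries (FDR 0.00827) and 0.25 ± 0.095 between the lines (FDR 0.0588, not called). The call in OE UPAT held in all refits, while that in the OE APOLO-labelled libraries was lost when any one of 8 of the 9 libraries was left out (FDR up to 0.039). The latter was also lost with RLE scaling, in the fit of the 2 groups alone and with a replicate block.

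LHCB1.1 (AT1G29920), its neighbour, was at 3815, 3837 and 4427 CPM in OE UPAT, at 3800, 4011 and 3882 CPM in the OE APOLO-labelled libraries, and at 5543, 3880 and 5094 CPM in WT. WT B lay among the lines and the other WT libraries above them. The log2 fold change was -0.27 ± 0.115 in OE UPAT and -0.31 ± 0.115 in the OE APOLO-labelled libraries, not called (FDR 0.0945 and 0.0921 by edgeR). Without WT B it was -0.40 and -0.45, and called lower in both (FDR 0.0035 and 0.00469). LHCB1.3 (AT1G29930), the third copy and the member with the highest level, was at 23940, 26320 and 26990 CPM in OE UPAT and at 26990, 30350 and 27400 CPM in the OE APOLO-labelled libraries, against 30060, 25030 and 29000 CPM in WT. Its groups overlapped with WT, and the log2 fold changes were -0.12 and 0.01, with 95% intervals of -0.33 to 0.09 and of -0.2 to 0.22.

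Within the tandem group the weights of the copies shifted. LHCB1.2 made up 20.3, 19.1 and 19.7% of the CPM of LHCB1.1 to LHCB1.3 in OE UPAT and 15.9, 15.8 and 16.3% in the OE APOLO-labelled libraries, against 12, 12.2 and 12.4% in WT. The 3 groups did not overlap, with the OE APOLO-labelled libraries between OE UPAT and WT. A factor that scales all members of a library alike cancels in such a share. No p-value is given for them because the ratios were chosen with the values known, and an exact permutation test of 3 against 3 libraries could not go below 0.1 in any case. Reads can be shared between copies: 3.7% of the 75-base windows of LHCB1.2 also occur in LHCB1.1, and 10.4% of those of LHCB1.1 occur in LHCB1.2 or LHCB1.3, so that the split between copies carries an uncertainty that was not measured here. In addition, 16 members overlap a gene on the other strand, among them LHCB6, PSAH2, LHCB1.3, LHCB1.5 and RCA, and whether the counting used strand is not given in the sources used here.

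On chromosome 2, LHCB1.5 (AT2G34420) was at 16850, 17620 and 18200 CPM in OE UPAT and at 22470, 26840 and 24580 CPM in the OE APOLO-labelled libraries, against 24620, 21090 and 24170 CPM in WT. OE UPAT lay below both other groups, which overlapped. Its log2 fold change was -0.41 ± 0.104 in OE UPAT against WT (edgeR FDR 0.00729, called lower) and differed by -0.49 ± 0.104 between OE UPAT and the OE APOLO-labelled libraries (FDR 0.00251). The first call was lost without WT A, WT C, OE APOLO C or any OE UPAT library (FDR up to 0.0452, log2 fold change -0.48 to -0.37), and the second without OE APOLO B or any OE UPAT library (FDR up to 0.0158). With a replicate block the first call was lost as well. As a share of all LHCB1 it was 26.7, 26.3 and 26.3% in OE UPAT and 30.8, 31.5 and 31.7% in the OE APOLO-labelled libraries, against 31.0, 31.7 and 31.4% in WT. Its neighbour LHCB1.4 (AT2G34430) was at 11450, 12190 and 11840 CPM in OE UPAT, against 13970, 17450 and 15670 CPM in the OE APOLO-labelled libraries, and at 14290, 12580 and 13840 CPM in WT. It was lower in OE UPAT than in the OE APOLO-labelled libraries (-0.41 ± 0.102, edgeR FDR 0.00701), a call lost without WT A, WT C, OE APOLO B or C or any OE UPAT library (FDR up to 0.0397), and -0.20 ± 0.101 against WT was not called. The call between the lines was also lost with upper-quartile scaling and with a replicate block. Summed over its 5 copies, LHCB1 differed by -0.16 ± 0.114 in OE UPAT (95% interval -0.38 to 0.06) and by 0.08 ± 0.114 in the OE APOLO-labelled libraries (-0.14 to 0.3) and was not called.

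**Figure D3:**
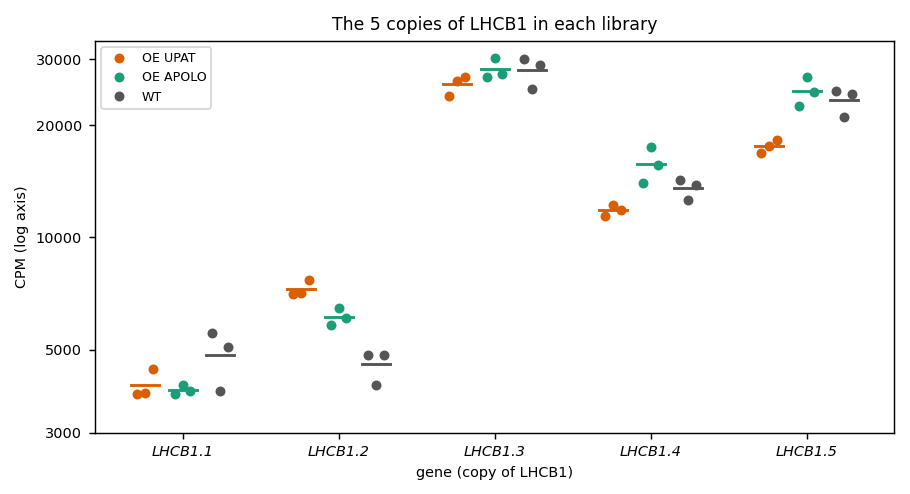
CPM (log axis) of the 5 copies of LHCB1 in each library (points) with the mean of each group (lines), for OE UPAT, the OE APOLO-labelled libraries and WT. For LHCB1.2 both lines lie above the 3 WT libraries, and for LHCB1.5 the 3 OE UPAT libraries, at 16850 to 18200 CPM, lie below all others.

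The other LHCII genes also differed among themselves. LHCB2.3 (AT3G27690) was at 488, 509 and 610 CPM in OE UPAT and at 463, 544 and 549 CPM in the OE APOLO-labelled libraries, against 403, 345 and 412 CPM in WT. Every library of both lines was above every WT library. It rose by 0.47 ± 0.1 in OE UPAT (edgeR FDR 0.00213, lost without WT B or without OE UPAT C, at an FDR of up to 0.0188), and the difference of 0.42 ± 0.1 in the OE APOLO-labelled libraries lay just outside the threshold (FDR 0.0103). The much more abundant LHCB2.1 and LHCB2.2 differed by -0.10 and -0.03 in OE UPAT and were not called. They share windows with each other (16.2% and 20.5%), and the LHCB2 sum differed by -0.02 ± 0.109 (95% interval -0.23 to 0.2). LHCB3, the third protein of LHCII trimers, was at 4804, 5157 and 5289 CPM in OE UPAT, against 6125, 7197 and 6464 CPM in the OE APOLO-labelled libraries, and at 6160, 5299 and 6056 CPM in WT, which overlapped with the OE APOLO-labelled libraries and lay just above OE UPAT. Of its comparisons, that between the lines was called (-0.38 ± 0.094, edgeR FDR 0.00746) and was lost without the same 7 libraries as that of LHCB1.4 (FDR up to 0.0402). That call was also lost with RLE or upper-quartile scaling and with a replicate block.

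Among the minor antennae, which link LHCII to the core of photosystem II, LHCB6 (AT1G15820, the CP24 protein) was called in both comparisons with WT. It was at 2812, 2960 and 3370 CPM in OE UPAT and at 2434, 2859 and 2791 CPM in the OE APOLO-labelled libraries, against 2126, 1793 and 2019 CPM in WT. Neither line overlapped with WT. Its log2 fold change was 0.62 ± 0.098 in OE UPAT (edgeR FDR 0.000191, held in all refits) and 0.44 ± 0.098 in the OE APOLO-labelled libraries (FDR 0.00689, lost without any one WT library, OE APOLO B or C or OE UPAT B, at an FDR of up to 0.0325). The second call was also lost in the fit of the 2 groups alone and with a replicate block. LHCB5, the highest of the minor antennae per kilobase, was at 4970, 5282 and 5726 CPM in OE UPAT and at 5008, 5778 and 5701 CPM in the OE APOLO-labelled libraries, against 5375, 4364 and 5243 CPM in WT. The groups overlapped, and the differences of 0.09 and 0.14 were not called. LHCB4.3, the rare copy of LHCB4, was at 9.87, 9.8 and 14.8 CPM in OE UPAT, against 7.05, 8.06 and 9.72 CPM in WT, and its difference of 0.46 ± 0.173 was not called (edgeR FDR 0.0528).

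None of the 4 LHCI genes was called in any of the 3 comparisons by edgeR, which had 1 unadjusted p under 0.05 in each, and DESeq2 called LHCA2 in the OE APOLO-labelled libraries and no LHCI gene in the other comparisons. LHCA4 (AT3G47470), the highest of them per kilobase, was at 7129, 7494 and 7684 CPM in OE UPAT and at 7977, 9021 and 8874 CPM in the OE APOLO-labelled libraries, against 9433, 7749 and 9315 CPM in WT. The OE UPAT libraries lay below all WT libraries, by a narrow gap to WT B. Its log2 fold change in OE UPAT was -0.25 ± 0.098 (edgeR FDR 0.0673), and without WT B it was -0.34 and called lower (FDR 0.00862).

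In photosystem II, 5 of 10 genes were called higher in OE UPAT (PSBO2, PSBP1, PSBQ1, PSBY and PSBS; median of the 10 genes 0.35) and 0 in the OE APOLO-labelled libraries by edgeR, where 5 had an unadjusted p under 0.05 and DESeq2 called 2. In OE UPAT, DESeq2 called 7 of the 10, all higher. Of all genes tested, 10.1% were called higher in OE UPAT by edgeR and 9.22% by DESeq2. PSBS (AT1G44575, NPQ4), the sensor of lumen pH that triggers heat dissipation of excess light, had the largest difference of all members. It was at 765, 841 and 944 CPM in OE UPAT and at 526.5, 597 and 555 CPM in the OE APOLO-labelled libraries, against 467, 399 and 492 CPM in WT. The 3 groups did not overlap. The log2 fold change was 0.91 ± 0.096 in OE UPAT against WT (edgeR FDR 5.11e-06), 0.60 ± 0.095 in OE UPAT against the OE APOLO-labelled libraries (FDR 0.000276), and 0.31 ± 0.095 in the OE APOLO-labelled libraries against WT (FDR 0.0455, not called). Both calls held in all refits.

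The other genes called by edgeR belong to the oxygen-evolving complex on the lumen side, except PSBY, a small membrane subunit. PSBQ1 (AT4G21280), one of 2 genes for the extrinsic PsbQ protein, was at 973, 1037 and 1122 CPM in OE UPAT and at 729, 921 and 893 CPM in the OE APOLO-labelled libraries, against 682, 594 and 692 CPM in WT. It rose by 0.67 ± 0.098 in OE UPAT (edgeR FDR 9.71e-05), with no overlap between any groups. PSBO1 (AT5G66570), the main gene of the manganese-stabilizing protein, was at 6361, 6952 and 7610 CPM in OE UPAT, against 6262, 5066 and 6198 CPM in WT, and its difference of 0.26 ± 0.107 was not called (FDR 0.0829). Its minor copy PSBO2 was at 1368, 1444 and 1646 CPM in OE UPAT and at 962, 1131 and 1128 CPM in the OE APOLO-labelled libraries, against 1038, 856 and 1100 CPM in WT. PSBO2 rose by 0.57 ± 0.104 in OE UPAT against WT (edgeR FDR 0.000638), by 0.47 ± 0.104 against the OE APOLO-labelled libraries (FDR 0.00342, and up to 0.024 without OE APOLO A or OE UPAT C), and it took 17.7, 17.2 and 17.8% of the PSBO sum in OE UPAT, against 14.2, 14.5 and 15.1% in WT, without overlap. PSBP1 (0.37, FDR 0.00743) lost its call without WT A, WT B, OE APOLO B or OE UPAT B or C (FDR up to 0.0509), and PSBY (0.46, FDR 0.00171) without WT A or OE UPAT C (up to 0.0153). PSBP1 overlaps another gene of its strand. PSBQ2, PSBR, PSBW and PSBX were not called by edgeR. In OE UPAT, PSBQ2 (0.34, FDR 0.0159) and PSBX (0.31, FDR 0.022) were called higher by DESeq2 and by the test without a filter. PSBR (-0.04) and PSBW (0.09) were called in no refit.

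In photosystem I, all 12 genes had positive log2 fold changes in both lines against WT (0.02 to 0.64 in OE UPAT and 0.1 to 0.43 in the OE APOLO-labelled libraries). Of all 48 members, 37 and 42 were positive, and the medians over all genes tested were -0.006 and -0.001. Both comparisons share the WT libraries, and members move together within a library, so that these signs are not separate results. PSAD1, PSAD2, PSAF and PSAH2 were called higher in OE UPAT, and PSAH2 in the OE APOLO-labelled libraries as well. Of all genes tested, 10.1% and 4.27% were called higher in these comparisons. DESeq2 called 8 of the 12 higher in OE UPAT and 2 in the OE APOLO-labelled libraries. PSAE1 just missed the threshold in OE UPAT (0.37, edgeR FDR 0.0116) and was called in 9 of the 18 refits. Between the lines 0 of the 12 were called by edgeR, where 3 had an unadjusted p under 0.05 and DESeq2 called 1. PSAH2 (AT1G52230), one of 2 genes of the subunit at which LHCII docks on photosystem I in state transitions, was at 1116, 1277 and 1314 CPM in OE UPAT and at 984, 1169 and 1058 CPM in the OE APOLO-labelled libraries, against 818, 707 and 853 CPM in WT. Neither line overlapped with WT. Its log2 fold change was 0.64 ± 0.095 in OE UPAT (edgeR FDR 0.000115, held in all refits) and 0.43 ± 0.095 in the OE APOLO-labelled libraries (FDR 0.00667, lost without any one WT library, OE APOLO B or C or OE UPAT B or C, at an FDR of up to 0.0355). The second call was also lost in the fit of the 2 groups alone. Of the PSAH sum, PSAH2 took 48.9, 48.1 and 48.1% in OE UPAT and 46.7, 45.0 and 44.7% in the OE APOLO-labelled libraries, against 40.9, 40 and 41.1% in WT, and the other copy, PSAH1, differed by 0.19 and 0.16 and was not called. PSAD1 (AT4G02770), a stromal subunit at which ferredoxin docks, was at 2166, 2464 and 2560 CPM in OE UPAT and at 1801, 2312 and 2096 CPM in the OE APOLO-labelled libraries, against 1736, 1499 and 1782 CPM in WT. It rose by 0.52 ± 0.104 in OE UPAT (edgeR FDR 0.00139, and 0.0116 without OE UPAT C). PSAF, which binds plastocyanin in the lumen, was at 3835, 4341 and 4674 CPM in OE UPAT and at 3163, 3846 and 3381 CPM in the OE APOLO-labelled libraries, against 3414, 2891 and 3367 CPM in WT. Its difference of 0.41 ± 0.103 in OE UPAT was called (edgeR FDR 0.00695), but not without any one WT library or without OE UPAT B or C (FDR up to 0.0507). With a replicate block it was not called either. PSAD2, which overlaps another gene of its strand, differed by 0.44 (FDR 0.00289) and lost its call without WT B or OE UPAT C (up to 0.0234).

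The electron carriers between the photosystems were all called higher in OE UPAT, where 10.1% of all genes tested were. PETE2 (AT1G20340), the main plastocyanin gene, was at 2845, 3099 and 3305 CPM in OE UPAT and at 2177, 2595 and 2364 CPM in the OE APOLO-labelled libraries, against 2165, 1774 and 2206 CPM in WT. PETE1 (AT1G76100), the minor plastocyanin gene, was at 131, 140.4 and 143 CPM in OE UPAT and at 113, 141 and 123 CPM in the OE APOLO-labelled libraries, against 100.3, 89.1 and 106 CPM in WT. For both genes OE UPAT lay above WT without overlap. They rose by 0.59 ± 0.101 (edgeR FDR 0.000404) and 0.49 ± 0.087 (FDR 0.000555) in OE UPAT, and both calls held in all refits. In the OE APOLO-labelled libraries 0 of the 3 genes was called by edgeR, where PETE1 missed the threshold (0.35 ± 0.086, FDR 0.0129), 2 had an unadjusted p under 0.05 and DESeq2 called 1. PETC, the Rieske iron-sulfur protein of the cytochrome b6f complex, was at 1173, 1285 and 1437 CPM in OE UPAT and at 873, 1046 and 1012 CPM in the OE APOLO-labelled libraries, against 1054, 852 and 1055 CPM in WT. It rose by 0.40 ± 0.104 in OE UPAT (edgeR FDR 0.00891, lost without any one WT library, OE APOLO C or OE UPAT B or C, at an FDR of up to 0.0631). Its difference of -0.01 ± 0.104 in the OE APOLO-labelled libraries was not called (95% interval -0.22 to 0.19).

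All 5 Rubisco genes were called higher in OE UPAT against WT, and 4 of 5 (all but RCA) in OE UPAT against the OE APOLO-labelled libraries, and for all 5 the OE UPAT libraries overlapped with neither other group. Of all genes tested, 10.1% and 8.49% were called higher in these comparisons, and 23.1% and 19.8% lay higher without overlap. Members move together within a library, so that these 5 genes are not separate results. Against WT, 0 of 5 were called in the OE APOLO-labelled libraries, with 0 at an unadjusted p under 0.05 by edgeR and 0 by DESeq2. RBCS1A (AT1G67090), the main small-subunit gene, was at 10950, 12770 and 13630 CPM in OE UPAT and at 7309, 8409 and 7502 CPM in the OE APOLO-labelled libraries, against 9071, 7291 and 8772 CPM in WT. Its log2 fold change was 0.57 ± 0.112 in OE UPAT against WT (edgeR FDR 0.00112, and 0.0122 without OE UPAT C) and 0.69 ± 0.112 against the OE APOLO-labelled libraries (FDR 0.000351). In the OE APOLO-labelled libraries against WT it was -0.11 ± 0.111, with a 95% interval of -0.33 to 0.1.

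The 3 other small-subunit genes lie in tandem on chromosome 5. RBCS2B (AT5G38420) was at 3087, 3550 and 3938 CPM in OE UPAT and at 2051, 2539 and 2205 CPM in the OE APOLO-labelled libraries, against 2077, 1766 and 2209 CPM in WT. RBCS1B (AT5G38430) was at 2239, 2549 and 2801 CPM in OE UPAT and at 1280, 1791 and 1503 CPM in the OE APOLO-labelled libraries, against 1581, 1327 and 1623 CPM in WT. In both genes the OE UPAT libraries were above all others, and the other groups overlapped. The log2 fold changes in OE UPAT were 0.81 ± 0.112 for RBCS2B (edgeR FDR 6.8e-05), 0.74 ± 0.121 for RBCS1B (FDR 0.000257) and 0.66 ± 0.115 for RBCS3B (FDR 0.000482), and all 3 calls held in all refits. Against the OE APOLO-labelled libraries, RBCS3B (0.50, FDR 0.00408) lost its call without OE APOLO A or C or OE UPAT B or C (FDR up to 0.0306). From 5.3% to 14.1% of the windows of these 3 genes are shared among them, and RBCS1A shares none. The sum of the 4 small-subunit genes, which does not depend on how such reads were divided, was 0.64 ± 0.119 higher in OE UPAT than in WT (edgeR FDR 0.000747) and 0.62 ± 0.119 higher than in the OE APOLO-labelled libraries (FDR 0.00119, and 0.0116 without OE UPAT C). RCA (AT2G39730), the activase that frees Rubisco from inhibitors, rose by 0.43 ± 0.11 in OE UPAT (FDR 0.00704) and was not called without WT A, WT B, OE UPAT B or OE UPAT C (FDR up to 0.0597).

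Rubisco and LHCB1 were also compared within each library, where a factor common to all members cancels. The sum of the small-subunit genes was 0.379, 0.412 and 0.436 of the LHCB1 sum in OE UPAT and 0.223, 0.230 and 0.222 in the OE APOLO-labelled libraries, against 0.234, 0.228 and 0.242 in WT. The OE UPAT libraries lay above all others, and the other groups overlapped. Relative to the LHCB2 sum, the small-subunit sum was 6.035, 6.665 and 6.17 in OE UPAT and 3.425, 3.475 and 2.984 in the OE APOLO-labelled libraries. In WT it was 3.98, 3.923 and 4.032. Here no groups overlapped, with OE UPAT above WT and the OE APOLO-labelled libraries below it. Over copies summed, 5 of 10 families were called higher in OE UPAT (PSAD 0.50, PETE 0.59, PSAH 0.39, RBCS 0.64 and PSBQ 0.45 on the log2 scale) and 0 in the OE APOLO-labelled libraries by edgeR, where 5 had an unadjusted p under 0.05 and DESeq2 called 1. Without OE UPAT C 2 families were called higher in OE UPAT, and without WT A 3.

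**Figure D4:**
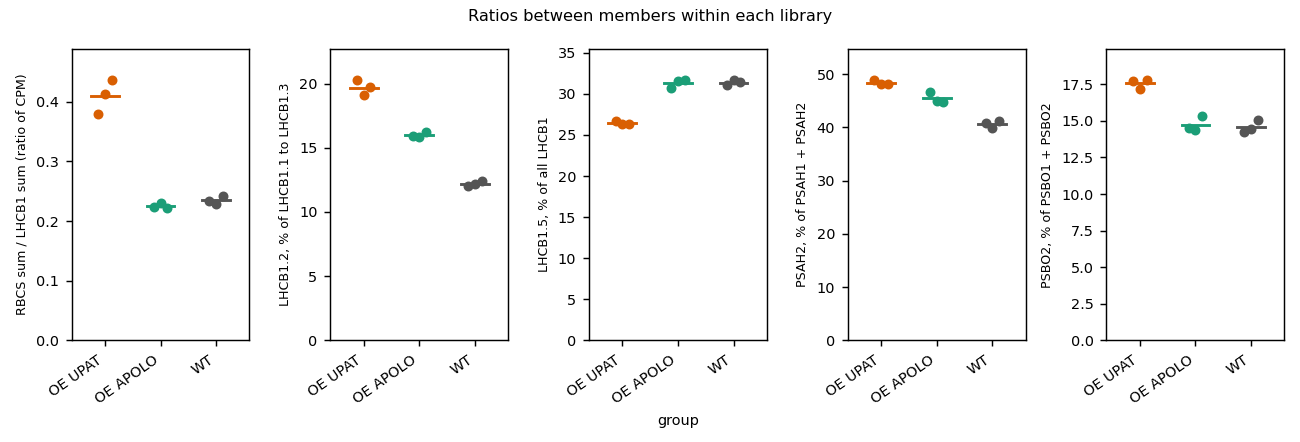
Ratios between members within each library (points, 1 per library, with the group mean as a line): RBCS sum over LHCB1 sum, and the share in % of LHCB1.2, LHCB1.5, PSAH2 and PSBO2 in the sums named on each axis, all axes starting at 0. The panels were chosen with the values known. OE UPAT differs from WT without overlap in these 5, and the OE APOLO-labelled libraries differ from WT without overlap for LHCB1.2 and PSAH2. Of the shares computed but not drawn, those of LHCB1.1 and LHCB1.4 in LHCB1 and of RBCS3B in RBCS overlapped between OE UPAT and WT. The others did not, among them those of RBCS1A, RBCS1B and RBCS2B in RBCS.

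Genes that work with the members were described from lists by pathway, and their counts stand beside the 10.1% of all genes tested that rose and the 9.72% that fell in OE UPAT, and the 4.27% and 2.27% in the OE APOLO-labelled libraries. The lists were chosen with earlier results of these data known, so that the counts are a description and not a test of the lists. Of 19 genes of the Calvin cycle outside Rubisco, 14 rose and 0 fell in OE UPAT by edgeR (median log2 fold change 0.61), where 2 were lower at an unadjusted p under 0.05 and DESeq2 called 0 lower. The largest differences were those of PGK2 (phosphoglycerate kinase, 0.97 ± 0.091), RPI3 (ribose phosphate isomerase, 0.95 ± 0.103) and HCEF1 (chloroplast fructose bisphosphatase, 0.80 ± 0.093). In the OE APOLO-labelled libraries 0 of the 19 were called by edgeR, where 5 had an unadjusted p under 0.05 and DESeq2 called 1. Of 19 genes of chlorophyll synthesis, 9 rose and 0 fell in OE UPAT by edgeR (1 was lower at an unadjusted p under 0.05 and by DESeq2), and 5 rose and 1 (HEMA2, -0.39) fell in the OE APOLO-labelled libraries. Of these 6, PORB and GUN4 were called in all 18 refits, and without WT B or without OE APOLO B the count of 6 was 3 and 2. DVR, the divinyl reductase, was at 80.5, 86.3 and 105.5 CPM in OE UPAT and at 41.0, 40.8 and 40.4 CPM in the OE APOLO-labelled libraries, against 37.1, 32.9 and 32.7 CPM in WT. It rose by 1.4 ± 0.094 in OE UPAT (edgeR FDR 6.66e-08), more than any member. PORC and PORB, which reduce protochlorophyllide in the light, rose in both: by 1.07 and 0.86 in OE UPAT and by 0.43 and 0.68 in the OE APOLO-labelled libraries, where PORC lost its call in 5 refits, among them those without WT A, WT B, OE APOLO B or OE APOLO C (FDR up to 0.0171). GSA2 (glutamate-semialdehyde aminomutase, 1.02 and 0.44) and CHLI2 (a subunit of Mg chelatase, 0.83 and 0.45) were also called in both, but in the OE APOLO-labelled libraries GSA2 lost its call without WT B or OE APOLO B (FDR up to 0.0132), and CHLI2 in 5 refits, among them those without WT B, WT C, OE APOLO B or OE APOLO C (FDR up to 0.018). GUN4, the activator of Mg chelatase, rose in the OE APOLO-labelled libraries (0.52 ± 0.075, FDR 0.000315) and differed by 0.02 in OE UPAT, and the difference between the lines was called (-0.49 ± 0.077, edgeR FDR 0.000243).

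Of 25 other thylakoid genes, 11 rose and 2 fell in OE UPAT, and 1 (4.0%), the ATP synthase subunit ATPD, was called higher in the OE APOLO-labelled libraries, a share near the background. That call (0.50, FDR 0.00565) was lost in 6 refits, among them those without WT A, WT B, OE APOLO B, OE APOLO C or OE UPAT B (FDR up to 0.0277). The antenna relative LHCA6 (1.17 ± 0.105), the photosystem II assembly factor PSB28 (1.09 ± 0.12) and ATPD (1.00 ± 0.107) had the largest differences in OE UPAT. The rare antenna relative LHCB7 was among those that fell, at 18.5, 18.1 and 19.1 CPM in OE UPAT, against 30.8, 27.9 and 33.8 CPM in WT (-0.73 ± 0.119, edgeR FDR 0.000263).

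Of 23 light and plastid regulators, 3 rose and 8 fell in OE UPAT, and 4 rose and 0 fell in the OE APOLO-labelled libraries (with 3 lower at an unadjusted p under 0.05 and 0 lower by DESeq2). Without WT C or without OE UPAT C, 7 regulators in place of 11 were called in OE UPAT, and without WT A, WT B, OE APOLO B or OE APOLO C, 2 in place of 4 in the OE APOLO-labelled libraries. GLK2, an activator of LHCB and chlorophyll genes, was at 63.6, 66.8 and 64.1 CPM in OE UPAT and at 123, 123 and 127 CPM in the OE APOLO-labelled libraries, against 85.5, 88.3 and 89.8 CPM in WT. WT stood between the lines, with no overlap. GLK2 fell by 0.44 (SE 0.063, edgeR FDR 9.33e-05) in OE UPAT and rose by 0.50 ± 0.061 in the OE APOLO-labelled libraries (FDR 8.24e-05). PIF4 and PIF5, light-labile repressors and growth regulators, differed by -0.63 and -0.31 in OE UPAT and by 0.30 and 0.46 in the OE APOLO-labelled libraries, all called. The call of PIF5 in OE UPAT was lost without WT C or OE UPAT C (FDR up to 0.0193), and that of PIF4 in the OE APOLO-labelled libraries in 8 refits, among them those without any one WT library, OE APOLO B or C or OE UPAT C (FDR up to 0.0325). GLK1 differed by 0.21 ± 0.112 and 0.42 ± 0.108 in OE UPAT and the OE APOLO-labelled libraries (FDR 0.163 and 0.0182), and HY5 by 0.07 ± 0.104 and -0.22 ± 0.102 (FDR 0.64 and 0.185), none of them called. GUN1, a plastid protein of signalling to the nucleus, rose in OE UPAT (0.40 ± 0.069) and not beyond the threshold in the OE APOLO-labelled libraries (0.15 ± 0.068). The plastid sigma factor SIG5 (-1.03 ± 0.115) and the photoreceptor PHYA (-0.71 ± 0.069) fell in OE UPAT, and GNC, a GATA factor that promotes greening, rose in both (0.48 in OE UPAT and 0.42 in the OE APOLO-labelled libraries, the second lost without WT A, WT B, OE APOLO B or OE APOLO C, at an FDR of up to 0.0226).

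Of 7 morning clock genes, 0 rose and 5 fell in OE UPAT by edgeR (DESeq2 called 0 higher as well, and 0 were higher at an unadjusted p under 0.05), with LNK2 at -1.01 ± 0.067, CCA1 at -0.99 ± 0.181 and PRR9 at -1.03 ± 0.236. The call of PRR9 was lost without WT B, WT C, OE UPAT B or OE UPAT C (edgeR FDR up to 0.0211). Of 7 evening clock genes, 2 rose (PRR3 0.60 and ELF4 0.48). In the OE APOLO-labelled libraries 1 gene of each list was called lower (PRR7 -0.32 and TOC1 -0.31). Neither call held: that of PRR7 was lost in 6 refits, among them those without any one WT library or OE APOLO B or C (FDR up to 0.0281), and that of TOC1 in 8, among them those without WT A, WT C, any OE APOLO library or OE UPAT B (FDR up to 0.0442). Of 13 genes induced by darkness and sugar starvation, 12 fell in OE UPAT, among them BCAT2 (a branched-chain aminotransferase, -1.89 ± 0.084), DIN6 (an asparagine synthetase, -1.79 ± 0.084) and DIN1 (-1.61 ± 0.115), and 4 fell in the OE APOLO-labelled libraries, with DIN2 at -1.02 ± 0.164, BCAT2 at -0.86 and TPS11 at -0.50. The part of these clock and sugar genes in the results on the members was not tested. Among the markers, 4 of 14 shoot and epidermis genes rose in OE UPAT (TCP3 0.64, TCP4 0.55, TCP10 0.39 and ATML1 0.39), and TCP3 also in the OE APOLO-labelled libraries (0.41, lost without WT A, WT B or OE APOLO B, at an FDR of up to 0.0238). Of the 4, TCP10 lost its call in 9 refits, among them those without any one WT or OE UPAT library (FDR up to 0.035), and ATML1 without WT A, WT B, OE UPAT B or OE UPAT C (FDR up to 0.0324). Of 14 tested root genes, 1 (7.14%) was called lower in OE UPAT (TIP2;3 -0.69), a share not above the background.

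**Figure D5:**
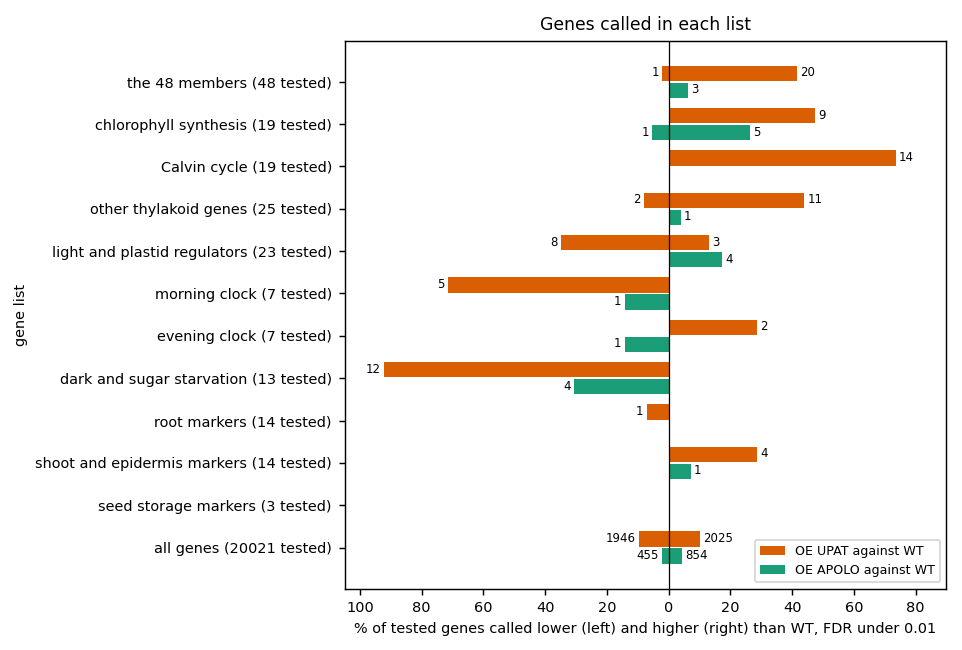
Share in % of the tested genes of each list that were called higher (right) and lower (left) than WT in OE UPAT and in the OE APOLO-labelled libraries, with the number of genes at each bar and all 20021 genes tested in the lowest row. In OE UPAT 14 of 19 Calvin cycle genes were higher and 12 of 13 dark and sugar starvation genes lower. The lists were chosen with earlier results of these data known.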

How the data were processed

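RNA was measured in 9 libraries of whole seedlings, 3 per group, which the study's methods describe as independent biological replicates of each genotype. The authors sequenced stranded mRNA libraries as single-end reads of 75 bases, trimmed the reads with Trimmomatic 0.36, removed ribosomal reads, aligned them to TAIR10 with STAR 2.5.2b and counted them per gene with featureCounts (Subread 1.6.5) on Araport11. How reads shared by several features were divided, and whether strand was used in the counting, is not given in the sources used here. The deposited values are estimated counts per feature, not normalized and partly fractional (181 of the 432 values of the members), over 69383 features, of which 31189 are transposable elements that were not used. The design had assumed whole counts, so that the values were rounded before the tests.

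Genes were tested with edgeR 4.0.16 in R 4.3.3 (TMM scaling, filterByExpr, quasi-likelihood F-test) in 1 fit of all 3 groups over 20021 genes, and called at a Benjamini-Hochberg FDR under 0.01. CPM is the deposited count divided by the TMM-scaled library size, and its floor of 3 counts is 0.207 to 0.393 CPM. Copies of a family were also summed and tested as 1 gene. Alternatives were DESeq2 1.42.0, other scalings and filters, the 2 groups alone, a replicate block, organelle genes left out, each library left out, and other thresholds. By the naming rule, library values were given for the member with the highest mean CPM in each role, the called members with the largest log2 fold change (up to 2 per role) and all members called in OE APOLO against WT, with up to 3 called genes per other list and comparison and GLK1, GLK2, HY5 and GUN1. LHCB1.1, LHCB1.4, LHCB1.5, LHCB3, LHCB4.3, PSBO2, PETC, LHCB7, HEMA2 and ATML1 were added after their values were seen. The members and lists were chosen with earlier results of these data known. Gene positions and promoter sequence are from RefSeq, TAIR10.1. A list of plastid genes is not analysed here, since 0 of 134 plastid rows matched a symbol. The SE of a log2 fold change was derived from the F statistic of the quasi-likelihood test. Intervals are approximate 95% intervals from this SE and the normal distribution. They are narrower than intervals that allow for the small number of libraries. Counting floors cover counting error only. No 2 libraries of a group were as alike as sampling noise would make them (chi-square per gene 1.76 to 7.13), and all were kept.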

Additional observations from a re-analysis of the deposited data

How the results depend on the processing

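Against the 3 members called in the OE APOLO-labelled libraries, DESeq2 called 10, the test without a filter 7, the fit of the 2 groups alone 0, that without organelle genes 5, an FDR under 0.05 gave 10, and an added log2 fold change of at least 1 gave 0. For OE UPAT against WT (21 called), that added fold change gave 0. For OE UPAT against the OE APOLO-labelled libraries (10 called), DESeq2 called 18, the test without a filter 16, an FDR under 0.05 gave 18 and the added fold change 0. With 1 library left out, the counts ran from 0 to 8, from 11 to 24 and from 5 to 14 in these 3 comparisons. Of the family sums, DESeq2 called 1 in the OE APOLO-labelled libraries (0 in the main test) and 3 between the lines (1 in the main test), and with 1 library left out 0 to 2, 2 to 5 and 0 to 2 were called. The cause of these differences was not tested.

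No pairing by the letters A, B and C was seen: deviations of libraries with the same letter correlated at -0.279 to 0.196, and those with other letters at -0.267 to 0.35. Those of WT B correlated at 0.35 with OE APOLO A and at 0.219 with OE UPAT A, and OE APOLO A with OE UPAT A at 0.196. Each of these libraries was the lowest of its group for nearly all members. Whether they shared a batch was not tested. With the letter as a replicate block, 2, 19 and 9 members and 0, 5 and 1 family sums were called in the 3 comparisons. No called member changed direction under any alternative. Signs of members that were not called turned in 17, 11 and 27 refits, in 6, 4 and 9 members whose log2 fold changes were at most 0.09, 0.05 and 0.1 in size. With 3 libraries a group and members that move together within a library, differences of the size seen in the OE APOLO-labelled libraries lie at the limit of this design.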
